A study of Mus musculus with 39 samples.

Results

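Of the 20809 nuclear consensus binding regions of NOTCH and RBPJ in the embryonic mouse cortex, 1580 (7.59%) lay more than 300 kb from the start site of every protein-coding gene. Distance was measured on mm10 from the nearest edge of a region to the nearest annotated transcript start of any protein-coding gene, so these are the regions in the interior of gene deserts, here the intervals longer than 600 kb between neighbouring protein-coding start sites. The rule used position alone, and neither the source list nor the cluster of a region entered it. The 1580 regions fell into 441 deserts, and 12 deserts held 219 of them (13.9%). The desert between Tmem182 and Pou3f3, a POU-domain transcription factor of cortical progenitors and upper-layer neurons, held 41, the most of any.

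The regions come from Targeted DamID (TaDa), in which a DNA-binding protein is fused to the Dam methylase, so that adenines in GATC near its binding sites become methylated and the methylated fragments can be sequenced. Constructs were electroporated in utero into the cortex of wild-type MF1 embryos at E13.5 and the tissue was dissected at E14.5. The Hes5 promoter drove expression in radial glial cells (RGCs) and the Tα1 promoter in intermediate progenitor cells (IPCs), so a cell type here means the cells in which that promoter was active. The lists rest on 3 human RBPJ1 and 4 mouse Notch samples in RGCs (2 of NICD and 2 of NdECD, a Notch that lacks its extracellular part), and on 3 human RBPJ1 and 4 mouse NICD samples in IPCs. Dam-only samples of the same cell type (5 labelled RGC and 4 labelled IPC) served as controls. Of the 5, 4 name the RGC profiles in their labels, and which of them entered the peak calls is not given in the sources used here. By the labels, the RBPJ and the Notch profile of a cell type shared controls. Each list holds only peaks found in all pairs of fusion and control samples, with a constant score, so a region is called or not called and has no level, replicate value or depth. Intervals given with shares are 95% Wilson intervals, which cover counting error over regions only, and neighbouring regions are not independent.

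Notch signalling works by cleavage of the receptor at the membrane, after which its intracellular domain (NICD) enters the nucleus and joins RBPJ, the DNA-binding protein of the pathway, on target enhancers and promoters. Without NICD, RBPJ binds corepressors. In the developing cortex Notch activity keeps RGCs in a progenitor state, and Hes genes are its best known targets. Gene deserts are long stretches without protein-coding genes, and those beside developmental transcription factors are known to hold many long-range enhancers.

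Of the 7 desert regions called in all 4 lists, 5 are shown first, with the farthest region called in 3 lists. Such a call means that a peak of each list overlaps the region by at least 1 bp, and the peaks need not share a site. Each line gives the reference sequence of GRCm38 (mm10), plus strand, 5′ to 3′, in a window of 160 bases centred on the RBPJ core word nearest the middle of the region, and for the region without the word on its middle. Capitals mark TTCCCA or its reverse complement TGGGAA, the core of the RBPJ recognition sequence.
Zeb2–Acvr2a desert, chr2:46297327-46297486: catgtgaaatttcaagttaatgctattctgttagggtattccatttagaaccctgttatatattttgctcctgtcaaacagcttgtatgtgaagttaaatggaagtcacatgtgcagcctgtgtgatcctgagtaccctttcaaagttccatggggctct
Olfm4–Pcdh17 desert, chr14:80902509-80902668: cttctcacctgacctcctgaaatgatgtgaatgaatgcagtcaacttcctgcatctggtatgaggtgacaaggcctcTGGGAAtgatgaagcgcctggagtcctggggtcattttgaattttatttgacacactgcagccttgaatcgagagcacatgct
Slc4a3–Epha4 desert, chr1:76491103-76491262: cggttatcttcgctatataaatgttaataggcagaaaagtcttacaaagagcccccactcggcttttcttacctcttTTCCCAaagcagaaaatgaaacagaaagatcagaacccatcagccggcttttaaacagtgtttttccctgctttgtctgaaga
Tmem182–Pou3f3 desert, chr1:41811409-41811568: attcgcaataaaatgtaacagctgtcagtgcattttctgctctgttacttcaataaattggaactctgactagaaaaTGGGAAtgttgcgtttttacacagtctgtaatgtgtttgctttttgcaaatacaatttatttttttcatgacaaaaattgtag
Tmem182–Pou3f3 desert, chr1:41889943-41890102: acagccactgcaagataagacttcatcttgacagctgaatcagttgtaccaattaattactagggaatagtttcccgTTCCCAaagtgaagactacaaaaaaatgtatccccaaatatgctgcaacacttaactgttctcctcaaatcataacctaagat
Got2–Cdh8 desert, chr8:97476582-97476741: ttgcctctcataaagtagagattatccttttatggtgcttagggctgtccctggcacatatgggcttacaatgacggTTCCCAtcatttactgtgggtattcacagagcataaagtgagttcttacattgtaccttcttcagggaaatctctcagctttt
The Zeb2–Acvr2a region, of 801 bp, held 0 copies of the word on either strand and so has no capitals. The other 5 regions shown held 1 to 5 copies each, in widths of 2677 to 4541 bp. Of all 1580 desert regions, 77.0% held the word at least once, against 83.4% of the 19229 regions within 300 kb of a start site, which were wider. A match of these letters is a description of the sequence and not a measured binding site.

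RBPJ in RGCs accounted for most of the desert regions. The RGC RBPJ list called 1123 of the 1580 (71.1%, interval 68.8 to 73.3), where the share over all 20809 regions was 67.6%. The IPC RBPJ list called 364 (23.0%, 21.03 to 25.2), with 26.2% over all regions. The RGC Notch list called 230 (14.6%, 12.9 to 16.4), with 17.7% over all regions. The IPC Notch list called 139 (8.80%, 7.50 to 10.3), with 10.1% over all regions. Thus the share of RGC RBPJ was above, and those of RGC Notch and IPC RBPJ below, the shares over all regions by more than the counting intervals, while the interval of IPC Notch held the share over all regions. The differences were small, of 1 to 4 percentage points.

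Most desert regions were called in a single list. This held for 1362 regions (86.2%, 84.4 to 87.8), against 82.9% of all regions, and 931 of them were called in RGC RBPJ only, which was 58.9% of the desert regions (56.5 to 61.3) against 52.1% of all. A further 270 were called in IPC RBPJ only (17.1%, 15.3 to 19.0), where the share over all regions, 18.3%, lay inside the interval. In RGC Notch only there were 122 (7.72%, 6.51 to 9.14), an interval that also held the share over all regions. In IPC Notch only there were 39 (2.47%, 1.81 to 3.36), against 3.55% of all. RBPJ and Notch were both called in RGCs at 93 regions (5.89%, 4.83 to 7.16), against 7.77% of all regions. Both were called in IPCs at 35 (2.22%, 1.60 to 3.07), against 2.36%, a share inside the interval. RBPJ was called in both cell types at 77 (4.87%, 3.92 to 6.05; all regions 6.85%) and Notch in both at 35 (2.22%, 1.60 to 3.07; all regions 2.37%). Regions called in 3 or 4 lists numbered 51 (3.23%, 2.46 to 4.22), and the share over all regions, 3.88%, lay inside that interval.

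The cluster makeup of the desert regions differed more than their list makeup. The clusters were made by the authors with k-means from the binding intensities of the 4 profiles, and each of the 8 is described here by the lists that call its desert regions. Cluster 8 held 484 of the 1580 desert regions (30.6%, 28.4 to 33.0), against 14.4% of all regions and 13.1% (12.6 to 13.6) of those within 300 kb. Of these 484, 479 were called in RGC RBPJ, 5 in RGC Notch, 1 in IPC Notch and 0 in IPC RBPJ. Deserts over 300 kb from start sites thus held 16.1% of all cluster 8 regions but 7.59% of regions of all kinds.

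Each of the other clusters took a share at or below that over all regions. Cluster 5, RGC RBPJ regions for the most part (269 of 272), took 17.2% (15.4 to 19.2) against 22.5%. Cluster 3, in which 239 of 249 desert regions were called in IPC RBPJ, took 15.8% (14.0 to 17.6) against 16.3%, a share inside the interval. Cluster 1, led by RGC Notch (107 of 149), took 9.43% (8.09 to 11.0) against 10.5%, again inside the interval. Cluster 6, in which 72 of 134 were called in IPC Notch and 83 in RGC RBPJ, took 8.48% (7.21 to 9.96) against 10.8%. Cluster 7, with RGC RBPJ at 78 and IPC RBPJ at 67 of 116, took 7.34% (6.16 to 8.73) against 11.0%. Cluster 4, with RGC RBPJ at 93 and RGC Notch at 49 of 113, took 7.15% (5.98 to 8.53) against 9.79%. Cluster 2, whose 63 desert regions were called 52 times in RGC RBPJ, 41 in IPC Notch, 26 in RGC Notch and 21 in IPC RBPJ, took 3.99% (3.13 to 5.07) against 4.76%, inside the interval. Among regions called in RGC RBPJ only, 478 of 931 in the deserts were in cluster 8 (51.3%, 48.1 to 54.5), against 25.2% (24.3 to 26.0) of the 9902 such regions nearer to genes, so the higher share of cluster 8 was also seen within a single list.

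**Figure D1:**
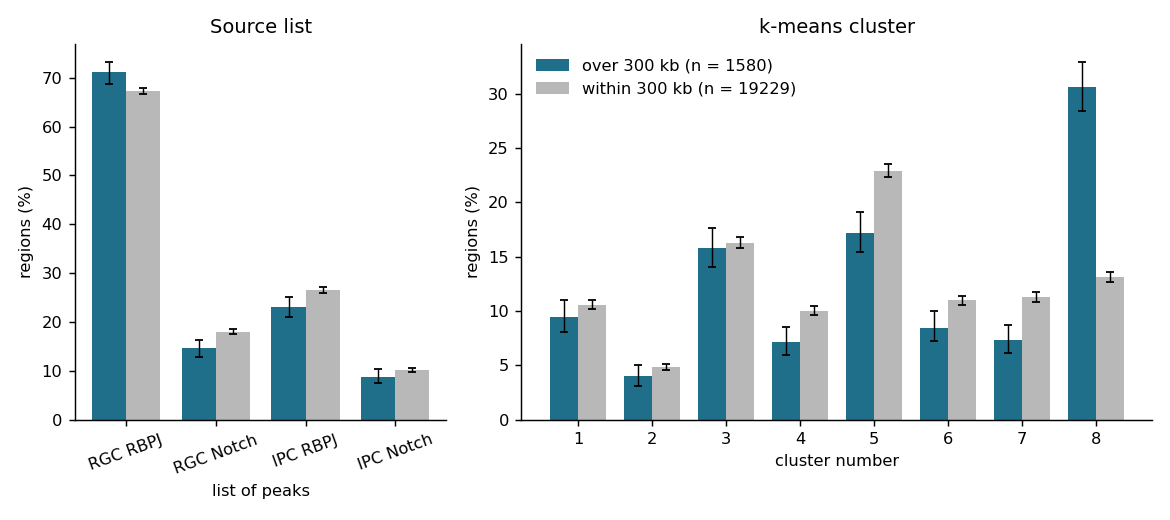
Share of regions (%) called in each peak list (left) and in each k-means cluster (right), for the 1580 regions over 300 kb from a protein-coding start site and the 19229 others; bars are shares and error bars 95% Wilson intervals for counting error. The list shares lie close together, and cluster 8 stands at 30.6% in the deserts against 13.1% nearer to genes.

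The share of cluster 8 was higher, and the density of all binding regions lower, in each bin beyond 300 kb than in the bin before. Of regions up to 10 kb from a start site 8.90% (8.30 to 9.54) were in cluster 8, and of those from 100 to 300 kb 17.7% (16.4 to 19.1). Inside the deserts the share was 24.6% (22.0 to 27.5) of the 926 regions from 300 to 500 kb, 35.5% (31.5 to 39.7) of the 519 from 500 to 1000 kb and 53.3% (44.9 to 61.5) of the 135 beyond 1000 kb. The intervals of these 3 bins did not overlap. GC content fell along the same bins, from a median of 41.3% to 38.9% and 37.3%, and cluster 8 was also the most AT-rich cluster nearer to genes, with a median GC of 42.0% there and 37.9% in the deserts. Compared at like GC, 57.1% (50.9 to 63.0) of desert regions under 36% GC were in cluster 8 against 44.6% (40.3 to 48.9) of the others. At 36 to 38% GC the shares were 41.2% (35.3 to 47.4) and 34.5% (31.3 to 37.97), with intervals that overlapped. At 40 to 42% GC they were 28.6% (23.6 to 34.3) and 20.98% (19.3 to 22.8). At 42 to 44% GC they were 15.4% (11.1 to 21.1) and 15.2% (13.9 to 16.7), and at 46% and above 5.23% (2.78 to 9.64) and 5.65% (5.20 to 6.14). The difference was therefore seen at low GC, and from 42% GC upward the intervals held both shares. The part of GC content in the shares was not tested further.

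The 459 Mb of known sequence over 300 kb from start sites, 17.3% of all known bases, held 3.44 regions per Mb, and the 2188 Mb nearer to genes held 8.79 per Mb, a ratio of 0.392. The ratio was 0.413 in the RGC RBPJ list and 0.317 in RGC Notch, and 0.341 and 0.338 in the RBPJ and Notch lists of IPCs. Per cluster it ran from 0.254 (cluster 7) to 0.379 (cluster 3) in clusters 1 to 7, and it was 0.915 in cluster 8, with 1.05 regions per Mb in the deserts and 1.15 nearer to genes. Cluster 8 was thus the cluster whose density changed least between deserts and the rest of the genome. Of the desert sequence 43.7% was repeat-masked, and 25.2 Mb lay on the Y chromosome, which held 0 desert regions. These densities were not adjusted for repeats. Inside the deserts the density of all regions was 4.55 per Mb from 300 to 500 kb, 2.85 from 500 to 1000 kb and 1.84 beyond 1000 kb. Between the first and the last of these bins RGC RBPJ went from 3.11 to 1.42 per Mb, and IPC Notch from 0.437 to 0.0682. RGC Notch went from 0.678 to 0.164, and IPC RBPJ from 1.15 to 0.314. The last bin held only 5 regions of IPC Notch, 12 of RGC Notch and 23 of IPC RBPJ, against 104 of RGC RBPJ.

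**Figure D2:**
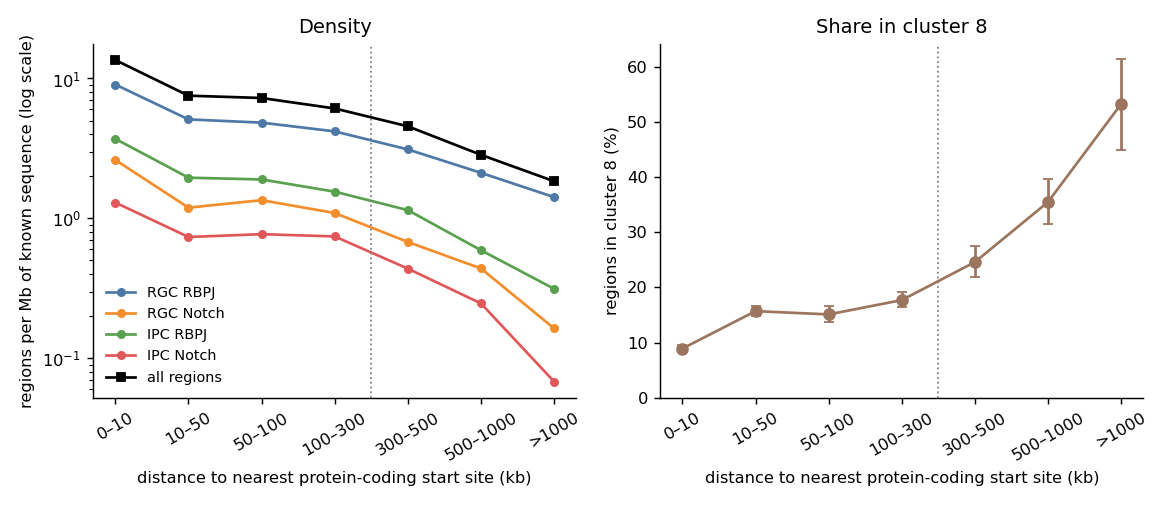
Regions per Mb of known sequence on a log scale, for all regions and for each list (left), and share of regions in cluster 8 in % with 95% Wilson intervals (right), by distance to the nearest protein-coding start site in kb; the dotted line marks 300 kb. From 100 kb outward all 4 lists thin out, and the cluster 8 share goes from 17.7% to 53.3%.

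The deserts differed widely in how many regions they held. Of 737 intervals with sequence over 300 kb from start sites, 441 held a region and 296 held none; 148 held exactly 1, 119 held 5 or more and 27 held 10 or more. The 27 fullest together held 385 of the 1580 regions (24.4%). Intervals with a region were longer, with a median of 1167 kb against 795 kb for those without. Autosomes held 1547 regions at 3.80 per Mb of desert sequence, the X chromosome 33 at 1.25 per Mb and the Y chromosome 0. Chromosome 1 held the most, 159, and chromosome 13 had the highest density, 5.63 per Mb.

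The desert of 1890 kb on chromosome 1 between Tmem182, a muscle membrane protein gene, and Pou3f3 stood out by number and by density. Its 41 regions lay in 1.29 Mb of desert sequence, a density of 31.8 per Mb against 3.44 over all deserts and 8.79 nearer to genes. RGC RBPJ called 32 of them, RGC Notch 16, IPC Notch 12 and IPC RBPJ 8. In all 18 were called in at least 2 lists and 7 in 3 or 4, of the 51 such regions in all deserts. Only 5 were in cluster 8, and clusters 1 and 6 held 7 each. The regions lay between 316 kb past the Tmem182 start and 417 kb before the Pou3f3 start, and were not evenly spaced. Their median width was 2721 bp, and 25 had another region within 10 kb. Of the 41, 12 lay inside annotated long non-coding genes, and 2 covered a start site of such a gene. One, called in RGC RBPJ and IPC Notch 775 kb from Pou3f3, covered a start of Gm29260, and the other, called in both Notch lists 433 kb from Pou3f3, a start of Gm28175.

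The second desert by number, on chromosome 18 between Zfp608, a zinc-finger gene, and Gramd3, held 23 regions in 0.808 Mb (28.5 per Mb). RGC RBPJ called 17, IPC RBPJ 7, and both Notch lists 5 each, with 3 regions in 3 lists and 1 in cluster 8. The desert between Slc4a3, an anion exchanger, and Epha4, an ephrin receptor of axon guidance and progenitor boundaries, held 20 in 1.23 Mb (16.3 per Mb). RGC RBPJ called 16 and RGC Notch, IPC Notch and IPC RBPJ called 4, 4 and 3. Regions with several lists and few of cluster 8 also marked the Pou3f2–Mms22l desert (Pou3f2 is a close relative of Pou3f3), with 15 regions at 10.7 per Mb, 7 of them in RGC Notch and 1 in cluster 8.

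Other deserts had larger shares of cluster 8. The Sel1l–Flrt2 desert of 3843 kb (Flrt2 is a membrane protein of adhesion and guidance) held 17 regions at 5.24 per Mb, 8 of them in cluster 8, and none was called in a second list. In the Tenm3–Aga desert of 4668 kb, next to a teneurin of synaptic partner matching, 8 of 14 regions were in cluster 8, at 3.44 per Mb. In the Olfm4–Pcdh17 desert of 4443 kb, next to a protocadherin, 9 of 13 were, at 3.38 per Mb. The Fam181b–Tenm4, Cdh6–Cdh9 and Tenm2–Mat2b deserts held 7 of 9, 6 of 8 and 6 of 8 in cluster 8. Other deserts with at least 14 regions were Celf4–Pik3c3 (17 regions, 6 in cluster 8), Slc10a2–Efnb2 (15, 4), Ttll7–Adgrl2 (15, 4), Bcl11a–5730522E02Rik (15, 3) and Nr2f1–Arrdc3 (14, 3). Efnb2 encodes an ephrin ligand, Adgrl2 a latrophilin adhesion receptor, and Bcl11a and Nr2f1 transcription factors of cortical neuron identity and area patterning.

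**Figure D3:**
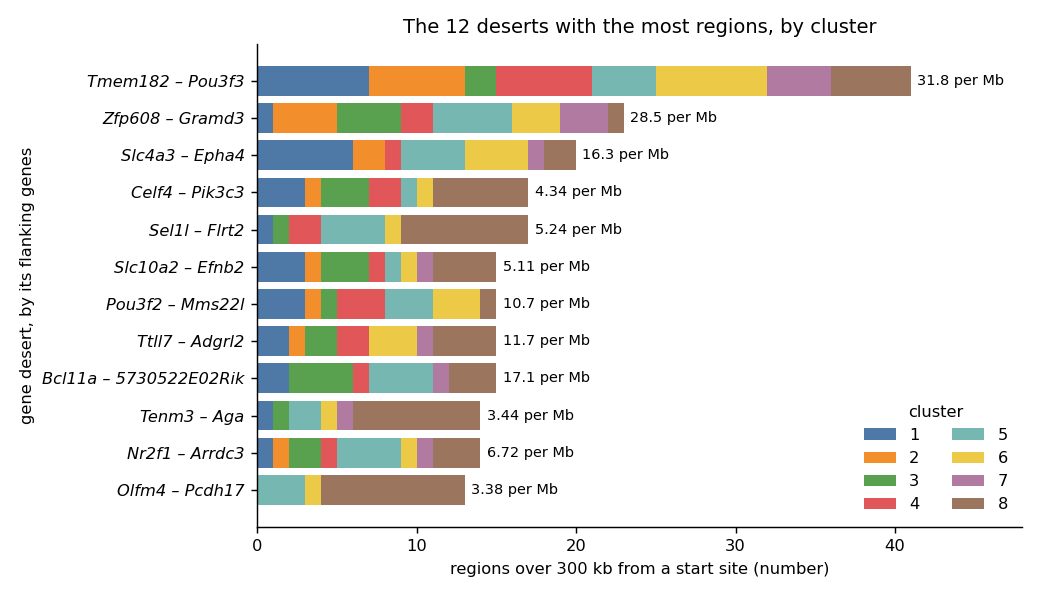
Number of regions over 300 kb from a start site in the 12 deserts that held the most, coloured by k-means cluster, with the density per Mb of desert sequence beside each bar. Tmem182–Pou3f3 leads with 41 at 31.8 per Mb, and cluster 8 takes 9 of 13 in Olfm4–Pcdh17 but 5 of 41 in Tmem182–Pou3f3.

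Counted per Mb among deserts with at least 5 regions, the short interval between Sox9, a transcription factor of neural stem cells and glia, and Slc39a11 came first, with 11 regions in 0.184 Mb (59.9 per Mb) and 0 in cluster 8. Next came Npvf–Nfe2l3 (8 regions, 44.9 per Mb), H2al1j–Bcor (6, 39.3), Myo16–Irs2 (5, 36.8) and Rad51b–Zfp36l1 (6, 32.3), followed by Tmem182–Pou3f3 and Npas3–Egln3 (11, 31.4). The intervals from Sox9–Slc39a11 to Rad51b–Zfp36l1 in this order held only 0.136 to 0.186 Mb of desert sequence each. With at least 5 regions required, intervals this short could enter the ranking only at a high density. Their desert sequence also lay wholly within 500 kb of a start site, where deserts were densest (4.55 per Mb). The Sox2–Atp11b desert, next to a core factor of neural progenitors, was 12th, with 12 regions in 0.504 Mb (23.8 per Mb), 5 of them in IPC Notch. The desert on the other side of Sox9, from Kcnj2, held 10 at 8.96 per Mb. The Auts2–Castor2 desert held 12. Among intervals without a region, the longest desert sequences outside the Y chromosome lay at Ywhaq–Gm10330 (1.76 Mb), H2al1n–Cypt1 (1.71 Mb) and Cadm2–Speer2 (1.64 Mb). The interval between Slitrk1 and Slitrk6, synaptic adhesion genes, had 0 regions in 1.24 Mb.

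**Figure D4:**
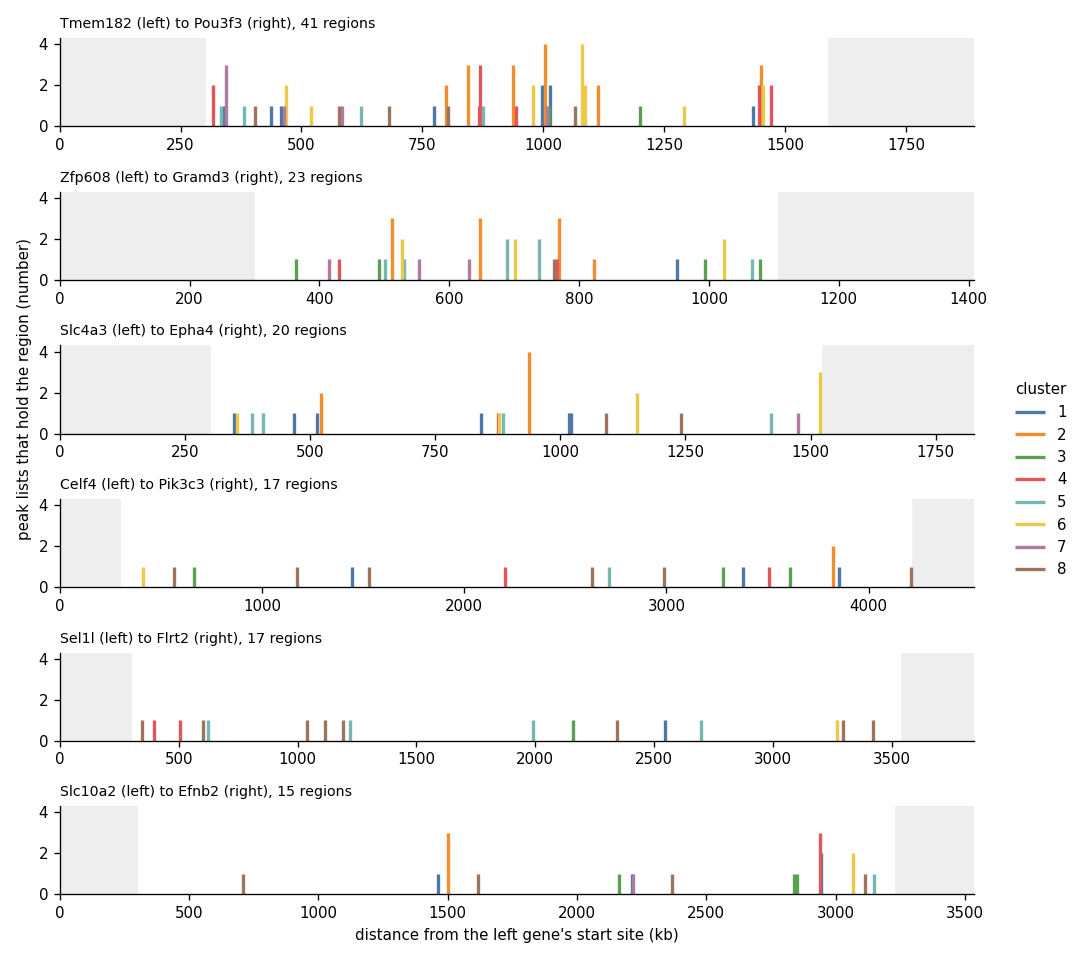
Position of every region over 300 kb from a start site in the 6 fullest deserts, in kb from the left gene's start site; line height is the number of peak lists that hold the region, colour is the cluster, and grey bands are the 300 kb next to each start site. Regions in 4 lists appear at 2 places in Tmem182–Pou3f3 and at 1 in Slc4a3–Epha4, and no region of Sel1l–Flrt2 exceeds 1 list.

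The 7 regions called in all 4 lists lay in 5 deserts. The Tmem182–Pou3f3 desert held 2, at chr1:41808702-41812652 and chr1:41886321-41890861, 883 and 805 kb from Pou3f3. One lay at chr1:76489462-76492138, 885 kb from Epha4 and 0.329 kb from the nearest annotated start site of any gene. One lay at chr14:80898631-80902930, 898 kb from Olfm4. Another, chr2:46297007-46297807, was 1180 kb from Zeb2, a zinc-finger homeobox repressor, on the way to Acvr2a, an activin receptor. Of the 7, 5 were in cluster 2 and 2 in cluster 6.

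A further 44 regions were called in 3 lists, so that 51 regions in 36 deserts had 3 or 4 calls. RGC RBPJ called 50 of the 51, IPC Notch 42, RGC Notch 35 and IPC RBPJ 33. Each such region lacks at most 1 list, so high counts per list follow from the choice. Cluster 2 held 22, cluster 6 13, cluster 7 8, cluster 4 7, cluster 3 1 and cluster 8 0. Of the 756 regions nearer to genes with 3 or 4 calls, clusters 2, 6, 7 and 4 held 244, 188, 182 and 91. Clusters 5, 1 and 3 held 31, 17 and 3 of these, and cluster 8 held 0 there too. In all 8 deserts held more than 1, with 7 in Tmem182–Pou3f3. Transcription factors were a flank at Pou3f2–Mms22l (2 regions), Zfp608–Gramd3 (3), Zeb2–Acvr2a, Nr2f1–Arrdc3, Kcnj3–Nr4a2, Hnf4g–Zfhx4, Csnk1g3–Zfp608, Meis2–Tmco5, Npas3–Egln3 and Sox9–Slc39a11. Npas3 was not on the transcription factor list used for the densities below, where its desert counts among all other deserts. Guidance genes were a flank at Slc10a2–Efnb2 (2), Epha5–Cenpc1, Camk1g–Plxna2 and Unc5d–Dusp26, and at Slc4a3–Epha4 (2). Adhesion genes were a flank at Olfm4–Pcdh17, Got2–Cdh8, Pcdh20–Pcdh9 and Ttll7–Adgrl2 (2). Such regions also lay in Hace1–Grik2, Kcna4–Mettl15, Megf9–Gm11232, Ccdc54–Cblb, Nectin3–Dppa4, Fbxo15–Neto1, Auts2–Castor2, Tmem161b–Ccnh, Nmbr–Cited2, Rad51b–Zfp36l1, Ccdc50–Fgf12, Gpd2–Galnt5, Clip4–Alk and Prkd1–G2e3. The Ubash3b–Sorl1 desert, beside a sortilin-family receptor, held 3, all inside non-coding genes. The Got2–Cdh8 region was the farthest with 3 calls, 1586 kb from the nearest start site. Regions with more calls were wider, with medians of 1562, 2561, 3551 and 3951 bp for 1, 2, 3 and 4 lists, and the same order held for regions nearer to genes (1731, 2971, 3611 and 4361 bp). A wide consensus region can be touched by separate peaks of several lists.

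The kind of gene at the ends of a desert went with the number of regions in it. Deserts with a transcription factor at either end (92, with 46.9 Mb) held 351 regions, or 7.48 per Mb, and all other deserts held 2.98 per Mb. Those flanked by genes of neuron and layer identity (20) held 131 at 9.16 per Mb against 3.26, and those flanked by radial glia markers (12) held 53 at 8.94 per Mb against 3.37. Many of these genes are transcription factors, so the 3 lists share deserts. Axon guidance genes (26 deserts) came with 148 regions at 5.67 per Mb against 3.31. Deserts flanked by adhesion and synapse organisers (116, with 136 Mb) held 347 at 2.55 per Mb against 3.82, and those flanked by ion channels and transmitter receptors (45) held 80 at 2.78 against 3.49.

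List calls and clusters also differed between transcription factor and adhesion deserts. In deserts beside transcription factors 21.4% of the regions were called in at least 2 lists, against 11.6% in other deserts, and 20.2% were in cluster 8, against 33.6%. In deserts beside adhesion genes 6.92% were called in at least 2 lists, against 15.7%, and 47.6% were in cluster 8, against 25.9%. Over all deserts these shares were 13.8% and 30.6%. Not every list divided this way. Beside ion channels and receptors, where density was low, 22.5% of the regions were called in at least 2 lists (others 13.3%), and beside axon guidance genes, where it was high, 14.2% were (others 13.8%). Beside transcription factors the IPC Notch density was 1.07 per Mb and the RGC Notch density 1.39, while beside adhesion genes they were 0.0955 and 0.242. Without the Tmem182–Pou3f3 desert the density beside transcription factors was 6.80 per Mb and that beside layer identity genes 6.92.

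Deserts beside adhesion genes were longer, with a median of 1387 kb against 948 kb beside transcription factors, so the densities were also taken at like distance. From 300 to 500 kb the deserts beside transcription factors held 8.63 per Mb and all others 3.93, and from 500 to 1000 kb 7.04 and 2.35. The deserts beside adhesion genes held 3.43 per Mb against 4.77, and 2.38 against 2.97. The cluster 8 shares in the nearer band were 17.2% beside transcription factors (others 27.0%) and 42.9% beside adhesion genes (others 21.6%). Densities beside layer identity genes were 9.49 and 9.48 per Mb in these bands, beside guidance genes 8.46 and 4.71, and beside radial glia markers 11.8 and 4.63, so the order among these lists changed. The Tmem182–Pou3f3 desert was kept in both bands, and band densities without it were not taken. It held 41 of the 131 regions beside layer identity genes and of the 351 beside transcription factors. The layer identity, guidance and radial glia lists, like transcription factors, were denser than all other deserts in both bands.

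**Figure D5:**
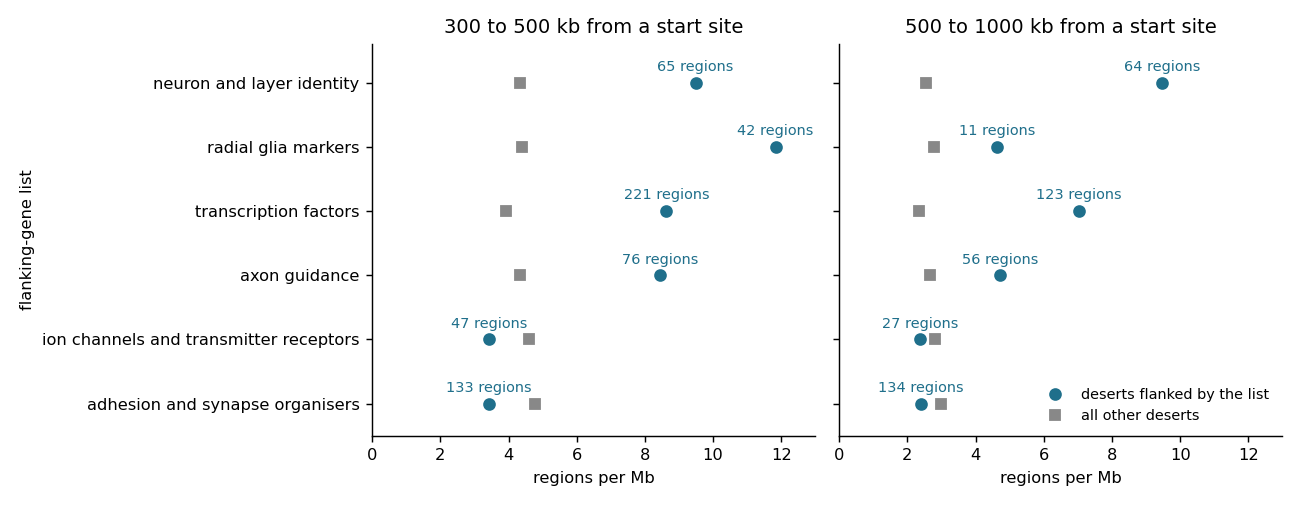
Regions per Mb in deserts flanked by a gene of each list (circles, with the number of regions) and in all other deserts (squares), at 300 to 500 kb (left) and 500 to 1000 kb (right) from a start site. Circles lie to the right of the squares for layer identity, radial glia, transcription factor and axon guidance lists, and to the left for channels and adhesion genes, in both bands.

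No test was run on these densities, and deserts with a gene of a list at each end counted once. Among flanking genes, transcription factors made up 64 of the 771 genes that flank a desert with a region (8.30%, 6.55 to 10.5), 28 of the 532 that flank one without (5.26%, 3.67 to 7.50), and 3.86% of all protein-coding gene symbols. Adhesion and synapse organisers made up 73 of 771 (9.47%, 7.60 to 11.7) and 29 of 532 (5.45%, 3.82 to 7.72), against 0.707% of all symbols. For both lists the intervals of deserts with and without a region overlapped. All 19 guidance genes at the ends of deserts flanked at least 1 with a region, among them Epha4, Efnb2, Robo1, Robo2, Slit2, Nrp1 and Dcc, and 0 of the 532 genes at empty deserts were on that list (interval up to 0.717%). The 19 were 2.46% of the 771 (1.58 to 3.82), against 0.342% of all symbols. Deserts beside guidance genes were longer than all others, with a median of 1269 kb against 947 kb. Some held few regions, such as Pard3–Nrp1 with 1. Of the 43 Notch pathway genes, which are 0.196% of all symbols, Jag1, a Notch ligand, was the only flank (0.130% of the 771), with 5 regions in the Jag1–Btbd3 desert. Gadd45g was the only flank among intermediate progenitor markers (0.130%, against 0.0958% of all symbols), with 1 region. Chemosensory receptors gave 3 flanks (0.389%, 0.132 to 1.14), against 6.73% of all symbols, with 3 regions in all.

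Some desert regions lay inside a gene whose start was far away. A protein-coding gene body held 174 of the 1580 (11.0%, 9.56 to 12.7), 6 regions touched a protein-coding exon, and 1406 were outside every protein-coding gene. Npas3, a bHLH-PAS transcription factor gene of 823 kb, held 11, from 306 to 453 kb from a start site, all in RGC RBPJ, 3 also in IPC RBPJ and 3 in IPC Notch. Pard3b, a polarity protein gene, Unc5d, a netrin receptor gene, and Atrnl1 held 7 each. Lsamp, Nrg1, Gpc6, Pcdh9 and Rad51b held 6 each. In 19 deserts, with 38 regions, both ends were start sites of 1 gene.

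Non-coding genes were much closer than protein-coding ones. The median distance to the nearest start site of any annotated gene was 47.9 kb, against 450 kb to a protein-coding one, and 36 of the 1580 regions (2.28%) were over 300 kb from every annotated start. A long non-coding gene held 211 regions (13.4%, 11.8 to 15.1), and 33 (2.09%) covered a start site of one. Among these 33, the regions in 3 lists lay on 1110015O18Rik in Hnf4g–Zfhx4, on Gm47760 in Nmbr–Cited2, on 3110039I08Rik in Ubash3b–Sorl1 and on Gm40421 in Prkd1–G2e3. A pair of regions in RGC RBPJ and RGC Notch lay on start sites of Rmst, a neural long non-coding RNA, in the Tmpo–Nedd1 desert, which held 12 regions.

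Desert regions were narrower and farther apart than the others. Their median width was 1674 bp (quartiles 1076 and 2548, range 213 to 9140), against 1916 bp. The widest, 9140 bp, lay between Sox9 and Slc39a11 and was called in RGC RBPJ only. The next consensus region was a median of 56.3 kb away, against 24.4 kb for regions nearer to genes, and 253 (16.0%, 14.3 to 17.9) had one within 10 kb, against 28.8%. In RGCs the median widths were 1826 bp (RBPJ) and 2482 bp (Notch), and in IPCs 1399 and 2037 bp. In each list they were below the medians nearer to genes, of 2180, 2759, 1699 and 2239 bp in the same order.

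The desert regions were richer in GC than desert DNA at large and poorer than the regions nearer to genes. Their GC content was 40.5%, that of all sequence over 300 kb from start sites 38.2% and that of the other regions 46.5%. Repeat-masked bases made up 21.2% of them, 43.7% of the desert sequence and 17.7% of the other regions. The word TTCCCA occurred 1.05 times per kb on both strands together, 0.830 in desert sequence and 1.17 in the other regions. The longer word TTCCCAC, which contains it, occurred 0.222, 0.155 and 0.273 times per kb. The palindrome TAATTA, a homeodomain core word, occurred 0.532 times per kb, 0.539 in desert sequence and 0.345 in the others. GATC, the Dam site, occurred 3.04 times per kb, 2.56 in desert sequence and 2.90 in the others, so desert regions were above both. Over all 1580 desert regions the RBPJ core word was thus more frequent than in desert sequence, and the homeodomain word about as frequent. In regions called in 1, 2 and 3 or 4 lists TTCCCA occurred 1.03, 1.21 and 0.923 times per kb, each above desert sequence. TAATTA occurred 0.505, 0.615 and 0.676 times per kb, below desert sequence for 1 list and above it for 2 or more. Among the desert regions of each list it ran from 0.532 (RGC RBPJ) to 0.720 per kb (IPC Notch). In the deserts cluster 8 had the lowest rate of TTCCCA, 0.873 per kb, and the highest share of masked bases, 30.6%, and cluster 7 the highest rate, 1.33 per kb. These rates were not adjusted for GC or repeats.

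The IPC RBPJ list differed from the others in its GATC content. Because Dam methylates GATC, a region without it lies between neighbouring GATC sites. Of the 364 IPC RBPJ desert regions 119 (32.7%, 28.1 to 37.7) held 0 GATC, against 11 of 1123 in RGC RBPJ (0.980%), 2 of 230 in RGC Notch (0.870%) and 7 of 139 in IPC Notch (5.04%). Regions nearer to genes gave 32.7% in IPC RBPJ and 1.24% in RGC RBPJ, so the shares were alike in and outside the deserts. Of the 139 desert regions without GATC, 119 were in cluster 3, which was 47.8% of that cluster's desert regions. Its part in the counts of IPC RBPJ was not tested.

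The farthest region, of 398 bp in the Pcdh20–Pcdh9 desert (chr14:91602484-91602881), was 2283 kb from a start site, in RGC RBPJ and cluster 8. The next were 2200 kb from Celf4, a neuronal RNA-binding protein gene (5357 bp, cluster 4), and 2143 kb from Olfm4 (1919 bp, cluster 5), both in RGC RBPJ. At the threshold the 3 regions just inside lay 300.07, 300.09 and 300.44 kb from Slc39a11, Col8a1 and Naf1. The 3 just outside lay 299.7, 299.4 and 299.4 kb from Myo16, Eepd1 and Nkx6-1, and the one near Myo16 was called in 3 lists.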

How the data were processed

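The authors called broad peaks with MACS2 on mm10 against the Dam-only controls for each sample pair, kept peaks present in all pairs, merged the 4 lists into consensus regions and clustered these into 8 by k-means. The deposited files used here hold positions in bp and, in the lists, a score, which is constant, so no height, q-value, replicate value or depth can be read. There were 0 columns of single samples.

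Regions were placed with the GRCm38.p6 sequence and GENCODE M21, using all transcript starts of protein-coding genes. Regions on the mitochondrial genome were left out. A list called a region when a peak of it overlapped by at least 1 bp, which equalled the lists named in the consensus file for all 20809 regions. Densities leave out unknown bases, except those of the gene lists by distance band, which count them. No test was possible without values per sample, and shares have 95% Wilson intervals (scipy 1.17.1, Python 3.11.15, numpy 2.4.6, pandas 2.3.3, matplotlib 3.10.9). Distances, word counts and intervals were tested on simulated data.

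Flanking genes were named for the 12 fullest deserts, for regions in 3 or 4 lists, for the hosts of most regions, for the 3 farthest regions and for the 3 on each side of the threshold; deserts named for density, for cluster 8, for a shared flank or for lack of regions were chosen after their values were seen. Gene lists were patterns of gene symbols. One desert is not reported here by name. The members and the lists were chosen with earlier results of these data known. The alternatives were other thresholds, start-site sets, widths and overlaps, and those added after seeing the data were RefSeq start sites, merged loci for the lists, and the regions without the fullest desert.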

Additional observations from a re-analysis of the deposited data

How the results depend on the processing

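No paired analysis was possible because the lists hold no value per sample, and for the same reason no replicate was left out and no stricter peak threshold was set. Regions of at least 1000 bp were used in its place, which left 1237. The comparison set shares against the counting interval and rates against a margin of 10%. Of 134 values under alternatives, 104 stayed within these margins, counts within 1.5 times.

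The number of regions was 2582 beyond 200 kb, 654 beyond 500 kb and 36 when the start sites of all annotated genes counted. The other alternatives left it between 1237 and 2335. Beyond 200 kb cluster 8 took 26.6%. Beyond 500 kb it took 39.1%, clusters 6 and 7 took 6.57% and 4.74%, RGC RBPJ 74.9% and IPC RBPJ 20.03%, and the median gap was 90.0 kb. At 1000 bp or wider RGC RBPJ took 75.02%, IPC RBPJ 20.8% and cluster 3 13.2%. Where peaks had to cover 50% of a region, IPC RBPJ took 20.6% and IPC Notch 5.95%. With regions within 10 kb merged, RGC RBPJ took 73.3%. Among the 36 regions far from every annotated start, RGC RBPJ took 77.8%, RGC Notch 11.1%, IPC RBPJ 13.9% and IPC Notch 19.4%, and clusters 1 to 8 took 16.7%, 2.78%, 11.1%, 2.78%, 5.56%, 16.7%, 5.56% and 38.9%, each of which rests on 14 regions or fewer in a cluster. TAATTA was at 0.591 per kb in the central 500 bp, and the density ratio was 0.349 over whole chromosome lengths. Outside gene bodies, on autosomes and without the Tmem182–Pou3f3 desert, no share of a list or cluster left its interval.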
